A study of Danio rerio with 72 samples.

Results

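The genes described here encode extracellular matrix proteins and cell adhesion molecules, and were measured in the posterior presomitic mesoderm (PSM) of zebrafish embryos after manipulation of retinoic acid, FGF, Wnt or Notch signalling. Members were all probe sets annotated with a single gene symbol that begins as a collagen (col and a number followed by a), laminin (lama, lamb or lamc), integrin (itga or itgb), fibronectin (fn1), fibrillin (fbn), thrombospondin (thbs), cadherin (cdh and a number) or protocadherin (pcdh) gene. The rule used names only and no measured value. It found 53 of the 8793 genes with a named probe set, on 65 of the 15502 probe sets: 21 collagen genes, 7 laminin genes, 5 integrin genes, 5 fibronectin or thrombospondin genes, 8 cadherin genes and 7 protocadherin genes. No fibrillin gene was found by the rule, and 3 probe sets annotated with several symbols were left out. Of the 65 probe sets, 40, for 33 genes, lay above their array's median on at least 3 arrays and were tested, among 10126 tested in all.

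The presomitic mesoderm is the unsegmented tissue at the tail end of the vertebrate embryo from which somites bud off in sequence. Its cells hold each other through cadherins, and at somite borders integrins bind fibronectin, which is assembled into a matrix that surrounds the somites and the PSM. Laminins and several collagens form the basement membranes of the neighbouring epidermis and notochord, and fibrillar collagens fill the space between tissues. Protocadherin 8, called paraxial protocadherin in fish and frog, is a surface protein of paraxial mesoderm known for its part in morphogenetic movements and somite border formation.

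The 72 arrays fall into 19 groups of wild-type AB or transgenic embryos at the 12-somite stage, grown at 24 °C, from which posterior PSM was dissected by hand. Wild-type embryos were treated with retinoic acid (RA) for 1.5 h (4 arrays) or 3 h (3 arrays) beside DMSO alone (4 arrays each). In a second drug experiment, wild-type embryos received DAPT, an inhibitor of gamma-secretase that blocks Notch cleavage, for 1.5 h (3 arrays) or 3 h (2 arrays), beside DMSO alone (4 arrays each). After a heat shock of 30 min at 37 °C, tissue was taken 30 min or 1 h later from Tg(hsp701;dnfgfr1-EGFP) embryos, which carry a dominant-negative FGF receptor (4 arrays each time), and from wild-type embryos (4 arrays each time). It was taken 1 h later from Tg(hsp:70:DeltaTcF-gfp), Tg(hsp:70:dkk1-gfp) and Tg(hsp:70:wnt8a-gfp) embryos (4 arrays each). Dkk1 is a secreted Wnt antagonist, Wnt8a is a Wnt ligand, and a truncated Tcf blocks Wnt target genes. After a heat shock of 1 h, tissue was taken 45 min or 90 min later from embryos with both Tg(UAS:myc-notch1a-intra) and Tg(hsp70;gal4VP16), which make the active part of Notch1a, and from embryos with Tg(hsp70;gal4VP16) alone (4 arrays each). The heat-shock promoter is active throughout the embryo, so no transgene was confined to the PSM. Per the labels each array is its own biological replicate, and the number of embryos in each was not given in the sources used here.

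Values are log2 of the deposited signal plus 16 after quantile normalization, a scale whose floor is 4. A probe set was called where the adjusted p from a limma fit over all 72 arrays was under 0.05 (Benjamini-Hochberg over the 10126 probe sets, two-sided). Differences are the manipulated group minus its control, or the later time minus the earlier, in log2 units. Probe sets differ in how well they bind their transcripts, so levels are not compared between probe sets.

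All 10 PSM markers on the array, such as tbx16 and msgn1, passed the filter, and their summed signal was between 7043 and 18020 on every array. Markers of epidermis varied more, with a sum over 8 genes, of which cldne did not pass the filter, between 119 and 9631. Several libraries went against their labels. The libraries labelled DeltaTcf had dkk1b at 12.70 to 12.91, close to the 12.97 to 13.13 of the dkk1 libraries, against 4.73 to 5.93 in wild type at 1 h. In the libraries labelled notch1a-intra 45 min, notch1a was 11.64 and 11.83 in replicates 1 and 3 but 7.998 and 8.29 in replicates 2 and 4, against 7.20 to 8.46 in gal4 at 45 min. The level of axin2, a Wnt target, was 7.87 to 8.40 in the libraries labelled wnt8a, against 8.96 to 9.72 in wild type at 1 h. The only probe set of wnt8a also carried another symbol and was not used.

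At least 1 member was called in 14 of the 18 comparisons between groups, and 16 of the 33 tested genes were called at least once. These were all 4 tested laminin genes, 5 of 6 protocadherin genes, 4 of 11 collagen genes, 2 of 5 cadherin genes, 1 of 4 fibronectin or thrombospondin genes and none of 3 integrin genes. How many of all tested genes were called at least once was not counted, so these counts have no background beside them. The libraries labelled dkk1 had the most, with 10 of the 40 member probe sets lower and none higher, where 24.6% of all tested probe sets were called in either direction, 12.5% higher and 12.1% lower. The libraries labelled DeltaTcf had 8 called, 2 higher and 6 lower, where 20.6% of all were called, 9.92% higher and 10.6% lower. Those labelled wnt8a had 7 called, 1 higher and 6 lower, where 16.2% of all were called, 7.84% higher and 8.39% lower. Counted as genes, these calls were 8 for dkk1, 7 for DeltaTcf and 6 for wnt8a. The reason is that cdh2 was called on 2 probe sets in each, and fn1a on 2 for dkk1. With both directions pooled, the members' shares of 25%, 20% and 17.5% were near those of all probe sets, but the members' calls were mostly lower while those of all probe sets were split about evenly. In either scaling other than quantile normalization, 27 to 29 of the 40 members lay below wild type in each of these 3 comparisons, and their medians were between -0.43 and -0.28.

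The direction within these Wnt libraries was uneven. The median difference of the 40 members was -0.36 in the libraries labelled DeltaTcf, -0.41 in those labelled dkk1 and -0.33 in those labelled wnt8a, while the median of all tested probe sets was within 0.01 of 0 in each. Of the 40, 26 lay below wild type in all 3 comparisons, 8 above in all 3 and 6 were mixed. How many of all probe sets lay below or above in all 3 was not counted. The 3 comparisons share the same 4 wild-type arrays taken at 1 h. Against wild type at 30 min, 27 of the 40 members lay higher in those arrays and 13 lower. Their median was 0.15, and that of all probe sets -0.009. All 7 tested epidermis markers also lay higher in those arrays, with a median of 1.29. The dnfgfr1 arrays at 1 h were compared with the same wild-type arrays. There 21 members lay higher and 19 lower, with a median of 0.02. The part of these shared arrays in the shift of the members was not tested. In bulk tissue, fewer cells of a type and less RNA per cell cannot be told apart. Cell type markers had these medians for DeltaTcf, dkk1 and wnt8a, in that order. Epidermis had -0.48, -1.21 and -0.25, neural tissue -0.95, -0.80 and 0.41, and notochord with floor plate -1.16, -1.07 and 0.26. Blood and endothelium had -0.35, -0.31 and -0.58, and yolk and hatching gland -0.04, -0.32 and -0.30. Somite and muscle had -0.04, 0.03 and -0.06, and PSM -0.165, -0.42 and -0.05. The part of these tissues in the shift was not tested.

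**Figure D1:**
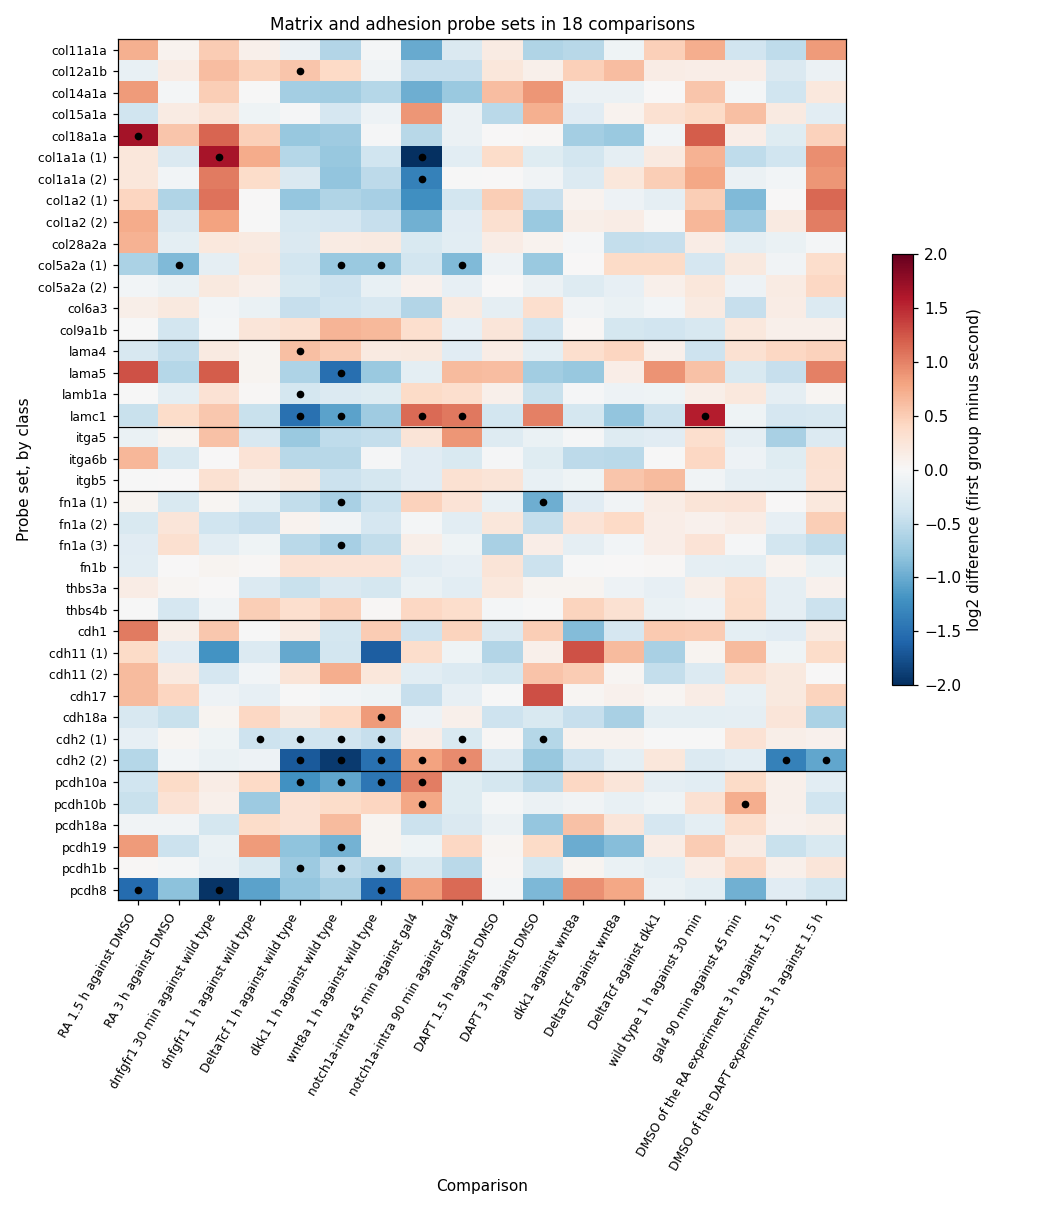
Log2 difference of each of the 40 tested matrix and adhesion probe sets (rows, grouped by class) in the 18 comparisons (columns, first group minus second), in colour, with a black dot where the probe set was called. The dots gather in the 3 Wnt columns, in cdh2 and in the protocadherins, and a number after a gene counts its probe sets from the brightest.

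The other manipulations called fewer members. With notch1a-intra, 6 members were called at 45 min, 4 higher and 2 lower, where 4.09% of all probe sets were called, and 4 were called at 90 min, 2 higher and 2 lower, where 6.87% of all were called. Counted as genes, these were 5 at 45 min, where col1a1a was called on 2 probe sets, and 3 at 90 min. At 90 min cdh2 was called higher on 1 probe set and lower on the other. RA gave 2 calls at 1.5 h, 1 higher and 1 lower, where 4.34% of all were called, and 1 lower at 3 h, where 3.68% of all were called. With dnfgfr1, 2 members were called at 30 min, 1 higher and 1 lower, where 3% of all were called, and 1 was lower at 1 h, where 3.42% of all were called. With DAPT none was called at 1.5 h, where 4.09% of all were called and 1 member had an unadjusted p under 0.05 in limma, and 2 were lower at 3 h, where 5.35% of all were called. The 45 min Notch comparison had the widest gap between members and background, with 15% of members called. Replicates 2 and 4 of its notch1a-intra libraries had notch1a near that of gal4. Without them cdh2, pcdh10a and pcdh10b were no longer called, with adjusted p of 0.202, 0.288 and 0.442 in limma. The calls of col1a1a and lamc1 were kept, and the count of members stayed within 1.5 times of the reported one. With array quality weights this comparison called 15 members, and in a fit of only its own 8 arrays 1. The shares of all probe sets called in those fits are not given here, and the 4.09% does not apply to them. Of all 48 member calls, 13 held under every alternative run on the same probe set: cdh2 on its dimmer probe set in all 3 Wnt comparisons, with notch1a-intra at 90 min and in DMSO of the RA experiment, cdh2 on its brighter probe set for wnt8a, pcdh10a in all 3 Wnt comparisons, pcdh8 for wnt8a, col5a2a for dkk1 and with notch1a-intra at 90 min, and lamc1 in wild type over time. The stricter filter, at 36 arrays, left out pcdh10a, so its calls were not tested there. On the other probe set of the gene, cdh2 had the opposite sign with notch1a-intra at 90 min and in DMSO of the RA experiment, and col5a2a was not called.

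The controls changed with time too. Wild type at 1 h against 30 min called 1 member, where 4.37% of all probe sets were called, and gal4 at 90 min against 45 min called 1, where 5.12% of all were called. DMSO at 3 h against 1.5 h called 1 member in the RA experiment, where 4.37% of all were called, and 1 in the DAPT experiment, where 4.83% of all were called.

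**Figure D2:**
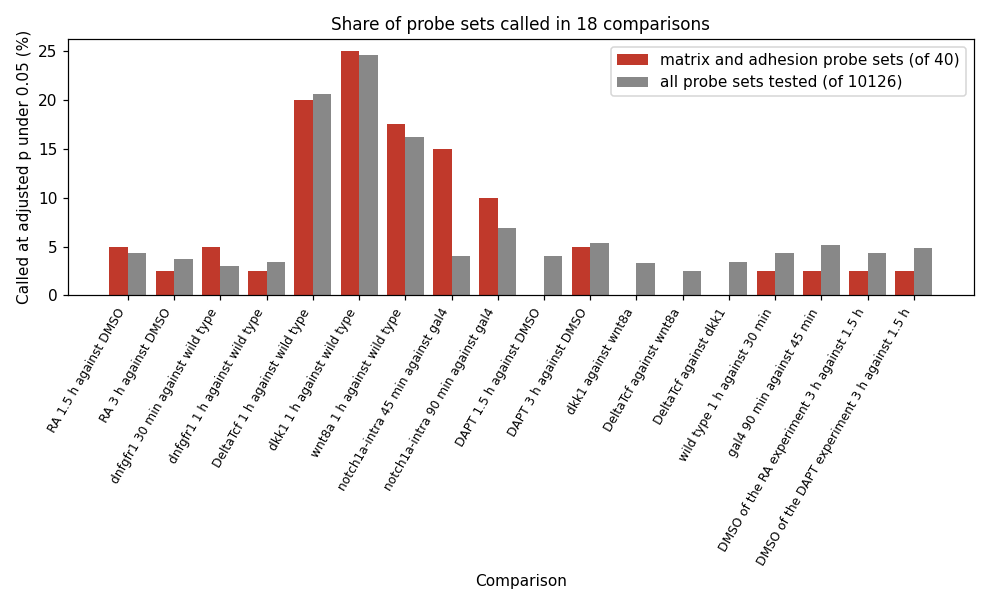
Percent of the 40 matrix and adhesion probe sets (red) and of all 10126 tested probe sets (grey) called at an adjusted p under 0.05 in each comparison. With both directions pooled, the member share is near the background in the Wnt comparisons (25% against 24.6% for dkk1) and 15% against 4.09% for notch1a-intra at 45 min. In that Notch comparison, replicates 2 and 4 of notch1a-intra had notch1a near that of gal4.

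Among the classical cadherins, cdh2 (N-cadherin, the main cadherin of mesoderm and neural tissue) was called most often, in 7 comparisons by its dimmer probe set and in 6 by its brighter one. The dimmer probe set fell in all 3 sets of Wnt libraries. It was at 6.59, 6.68, 6.45 and 6.81 in those labelled DeltaTcf, 6.73, 6.32, 5.57 and 7.01 in those labelled dkk1 and 7.15, 6.69, 6.76 and 6.68 in those labelled wnt8a, against 8.38, 8.50, 8.24 and 8.13 in wild type at 1 h. Every Wnt library lay below every wild-type array. The difference was -1.68 (SE 0.24, adjusted p = 4.18e-07) for DeltaTcf, -1.91 (SE 0.24, adjusted p = 1.23e-08) for dkk1 and -1.49 (SE 0.24, adjusted p = 6.73e-06) for wnt8a, and these calls held under every alternative run.

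The brighter probe set of cdh2 fell by less in the same libraries. It was at 10.74, 10.99, 10.84 and 11.002 in the libraries labelled DeltaTcf, 10.86, 10.85, 10.80 and 11.10 in those labelled dkk1 and 10.81, 10.72, 10.96 and 10.83 in those labelled wnt8a, against 11.20, 11.43, 11.41 and 11.11 in wild type at 1 h. No Wnt library reached the lowest wild-type array. The differences were -0.40 (SE 0.10, adjusted p = 0.00187), -0.39 (SE 0.10, adjusted p = 0.00182) and -0.46 (SE 0.10, adjusted p = 0.000438) in that order. Neither of the first 2 was called any longer on deposited scaling or after median centring. The brighter probe set was also lower at 1 h after dnfgfr1, where it was at 10.91, 10.53, 10.99 and 11.06, against the same wild-type arrays, a difference of -0.42 (SE 0.10, adjusted p = 0.00544). Without dnfgfr1 replicate 2, the lowest array, that difference was -0.30 and its adjusted p 0.0829. The call was also lost in fits of only the groups compared, with or without replicate numbers as a block. The dimmer probe set was not called at 1 h after dnfgfr1.

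The probe sets of cdh2 had differences of opposite sign after notch1a-intra at 90 min. There the dimmer one was at 8.16, 8.77, 8.70 and 8.46 in notch1a-intra embryos, against 7.86, 7.37, 7.71 and 7.40 in gal4 embryos, and the arrays did not overlap. The brighter one was at 10.92, 10.91, 11.16 and 10.98 in notch1a-intra embryos, against 11.42, 11.19, 11.29 and 11.25 in gal4 embryos. The dimmer probe set was higher by 0.94 (SE 0.24, adjusted p = 0.00882), and the brighter one was lower, at -0.30 (SE 0.10, adjusted p = 0.0455). The call of the brighter one was kept in 7 of 17 alternatives on this probe set and was lost without any of 6 of the 8 arrays, with adjusted p of 0.0641 to 0.136. At 45 min only the dimmer one was called, with 8.31, 8.77, 8.46 and 8.87 in the libraries labelled notch1a-intra, against 6.86, 7.98, 7.60 and 8.75 in gal4 embryos, a difference of 0.81 (SE 0.24, adjusted p = 0.0402). The arrays overlapped at 45 min, and the adjusted p was 0.202 without replicates 2 and 4, whose notch1a was near that of gal4. In a fit of only these 8 arrays the adjusted p was 0.354, and 0.122 with replicate numbers as a block in that fit.

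With time in DMSO, the dimmer probe set of cdh2 fell in both drug experiments, which share no array. It was at 6.86, 7.91, 7.91 and 7.90 at 3 h in the RA experiment, against 8.995, 8.72, 9.11 and 9.14 at 1.5 h, a difference of -1.35 (SE 0.24, adjusted p = 0.000185). Replicate 1 at 3 h lay well below the other arrays of its group. In the DAPT experiment it was at 7.62, 7.29, 7.90 and 8.07 at 3 h, against 9.15, 8.51, 8.72 and 8.68 at 1.5 h, a difference of -1.05 (SE 0.24, adjusted p = 0.00524). The brighter probe set did not pass the test in either, with differences of 0.12 and 0.09.

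DAPT at 3 h gave lower cdh2 on the brighter probe set, with 10.83 and 11.10, against 11.49, 11.67, 11.68 and 11.30 in DMSO, a difference of -0.57 (SE 0.12, adjusted p = 0.0017). After 1.5 h of DAPT it was at 11.37, 11.64 and 11.43, against 11.56, 11.58, 11.34 and 11.31 in DMSO. Subtracting the 1.5 h effect from the 3 h effect gave -0.60 (SE 0.16, adjusted p = 0.0205). The call of this contrast was kept in 15 of 22 alternative runs on the same probe set. This probe set was the only member called in any of the 4 contrasts of an effect between times, where 3.96% of all probe sets were called for DAPT. The contrasts for RA, dnfgfr1 and notch1a-intra called none in limma, with 7, 4 and 7 members at an unadjusted p under 0.05, where 0.721%, 0.375% and 0.691% of all were called. DAPT at 3 h rests on 2 arrays, and without its replicate 1 the difference at 3 h was -0.44 with an adjusted p of 0.131. The call at 3 h was also lost in a fit of only the groups compared, with or without replicate numbers as a block. The dimmer probe set of cdh2 was not called after DAPT for 3 h. PSM markers summed to 7530 and 7043 in the DAPT arrays at 3 h, against 9428 to 10910 in DMSO, and 9 of 10 lay lower, 3 of them called. Their part in the results of DAPT at 3 h was not tested.

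**Figure D3:**
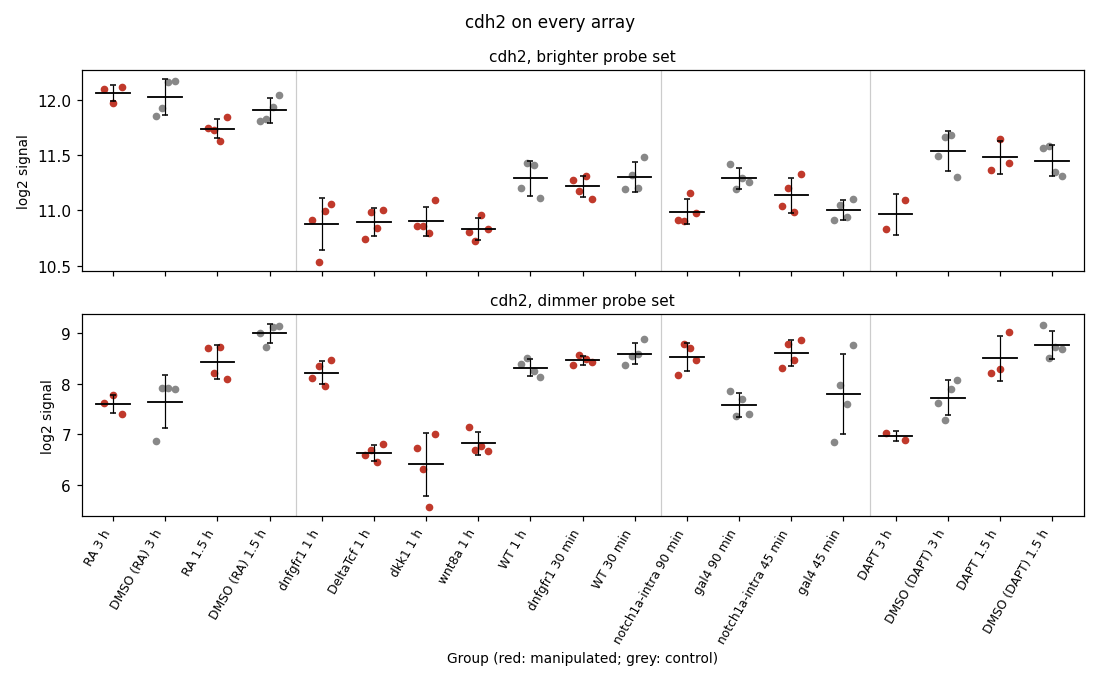
Log2 signal of the brighter (top) and dimmer (bottom) probe set of cdh2 on each of the 72 arrays, by group; points are arrays, horizontal lines group means and bars the SD. On the dimmer probe set the libraries labelled DeltaTcf, dkk1 and wnt8a all sit below the wild-type arrays, and the notch1a-intra 90 min arrays sit above gal4.

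The remaining cadherins gave 1 call. cdh18a, a type II cadherin, was higher in the libraries labelled wnt8a, with 5.68, 5.80, 5.78 and 5.74, against 5.13, 4.73, 4.60 and 5.13 in wild type at 1 h, a difference of 0.85 (SE 0.26, adjusted p = 0.0155). All 4 wnt8a libraries lay above the wild-type arrays, and without wild-type replicate 3 the adjusted p was 0.0641. cdh11, a mesenchymal cadherin, was at 6.19, 5.22, 6.0 and 6.12 in the libraries labelled wnt8a, against 7.41, 7.27, 7.79 and 7.63 in wild type at 1 h. These did not overlap, but the difference of -1.64 had an adjusted p of 0.0611.

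cdh1 (E-cadherin), the cadherin of epithelia and the early blastoderm, was not called in any comparison. Its group means ran between 7.11 in wild type at 30 min and 9.48 after DAPT for 3 h. After RA for 1.5 h it was at 8.32, 8.92, 8.87 and 8.09, against 8.01, 8.52, 6.83 and 6.71 in DMSO, with a difference of 1.03 (SE 0.44, adjusted p = 0.205). The dimmest tested member was cdh17, a cadherin of the kidney in fish, which averaged 4.63 over all arrays.

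Protocadherins differed in direction from gene to gene. pcdh10a, a non-clustered protocadherin, fell in all 3 sets of Wnt libraries. It was at 4.70, 4.17, 4.82 and 4.69 in those labelled DeltaTcf, 4.26, 5.53, 4.80 and 4.49 in those labelled dkk1 and 4.15, 4.60, 4.22 and 4.47 in those labelled wnt8a, against 5.60, 5.76, 6.12 and 5.73 in wild type at 1 h. All 12 Wnt libraries lay below the wild-type arrays. The differences were -1.21 (SE 0.29, adjusted p = 0.00165), -1.04 (SE 0.29, adjusted p = 0.00593) and -1.44 (SE 0.29, adjusted p = 0.000254) in that order. Each call was kept in all 17 alternatives that tested this probe set. The probe set lay above the array median on 21 arrays, so the stricter filter, at 36 arrays, left it out. The lowest pcdh10a values in the Wnt libraries are near the floor of the scale, which limits how well the size of the differences is known. The other probe sets of pcdh10a, with means of 4.55 and 4.26 over all arrays, did not pass the filter.

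pcdh10a was higher in the libraries labelled notch1a-intra 45 min, with 5.40, 6.15, 5.27 and 6.21, against 4.68, 4.99, 4.41 and 4.85 in gal4, a difference of 1.02 (SE 0.29, adjusted p = 0.0299). Replicates 2 and 4, whose notch1a was near that of gal4, were the highest. The gal4 arrays with the same replicate numbers, at 4.99 and 4.85, were also the highest of their group. Without notch1a-intra replicates 2 and 4 the difference was 0.60 with an adjusted p of 0.288. In a fit of only these 8 arrays the adjusted p was 0.113, and 0.0307 with replicate numbers as a block in that fit. Its paralogue pcdh10b was at 8.15, 8.94, 8.01 and 8.91 in the libraries labelled notch1a-intra, against 8.13, 6.996, 7.32 and 8.49 in gal4, and replicates 2 and 4 were again highest. The difference was 0.77 (SE 0.23, adjusted p = 0.0364), and 0.34 with an adjusted p of 0.442 without those replicates. In a fit of only these 8 arrays the adjusted p was 0.388, and 0.248 with replicate numbers as a block in that fit. pcdh10b was also higher in gal4 at 90 min, with 8.28, 8.43, 8.91 and 8.23, against the gal4 arrays at 45 min, a difference of 0.73 (SE 0.23, adjusted p = 0.0431). That call was kept in 6 of 17 alternative runs. It was lost on deposited scaling, after median centring, with a pseudocount of 64, without a filter and in fits of only the groups compared. It was also lost without any of several single arrays, among them gal4 replicate 2 at 45 min, where the difference was 0.49.

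pcdh8 (paraxial protocadherin) fell in 3 comparisons. After dnfgfr1 at 30 min it was at 7.11, 7.82, 9.07 and 7.03, against 10.20, 9.38, 9.91 and 9.36 in wild type, and the arrays did not overlap. The difference of -1.95 (SE 0.42, adjusted p = 0.00319) is 3.88-fold on this scale. In a fit of only these 8 arrays it was no longer called. At 1 h after dnfgfr1 it was at 9.34, 9.15, 6.59 and 8.71, with replicate 3 far below the others, against 9.88, 10.06, 9.79 and 8.31 in wild type. That difference of -1.06 had an adjusted p of 0.183.

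In RA-treated embryos pcdh8 was at 7.03, 6.42, 6.51 and 6.70 at 1.5 h, against 8.76, 7.99, 7.09 and 8.95 in DMSO, a difference of -1.53 (SE 0.42, adjusted p = 0.0227) with no overlap. Over the arrays left out in turn, that adjusted p reached 0.134, without DMSO replicate 4, and the call was also lost without DMSO replicate 1 or RA replicate 2 or 3. PSM markers summed to 7045 to 9991 with RA, against 9892 to 13670 in DMSO, with 9 of 10 lower, 4 of them called, and 1 called higher. Their part in the result was not tested. At 3 h it was at 7.14, 6.96 and 7.37 with RA, against 7.87, 8.90, 8.09 and 7.02 in DMSO, a difference of -0.81 with an adjusted p of 0.575. In the libraries labelled wnt8a it was at 7.96, 7.44, 8.63 and 7.80, against 9.88, 10.06, 9.79 and 8.31 in wild type at 1 h, where only wild-type replicate 4 overlapped them. That difference was -1.55 (SE 0.42, adjusted p = 0.00704) and held under every alternative run. The libraries labelled DeltaTcf and dkk1 did not pass the test, with differences of -0.78 and -0.64.

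pcdh8 in notch1a-intra embryos at 90 min was at 8.03, 8.73, 8.21 and 8.27, against 7.60, 7.08, 7.24 and 6.79 in gal4. The arrays did not overlap, but the difference of 1.13 had an adjusted p of 0.0946. With DAPT for 3 h it was at 6.75 and 6.70, against 7.46, 7.57, 8.05 and 7.45 in DMSO, also without overlap and with an adjusted p of 0.334.

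pcdh1b, a dim protocadherin with group means between 4.26 and 5.86, was lower in the libraries labelled DeltaTcf, at 4.67, 4.15, 4.85 and 5.09, against 5.43, 5.54, 5.31 and 5.37 in wild type at 1 h. The difference was -0.72 (SE 0.19, adjusted p = 0.00479). It was also called for dkk1, at -0.53 (SE 0.19, adjusted p = 0.0367), and for wnt8a, at -0.59 (SE 0.19, adjusted p = 0.0278), but each of these 2 calls was lost without any of several single arrays. Against the wild-type arrays at 30 min the adjusted p of pcdh1b was 0.0216 for DeltaTcf, 0.125 for dkk1 and 0.0822 for wnt8a. pcdh19, which in zebrafish works together with cdh2 in neural morphogenesis, was lower in the libraries labelled dkk1, at 6.03, 5.77, 6.57 and 5.93, against 7.64, 6.23, 6.53 and 7.65 in wild type at 1 h. The arrays overlapped, the difference was -0.94 (SE 0.31, adjusted p = 0.0208), and its adjusted p was 0.115 without wild-type replicate 4. Against the wild-type arrays at 30 min pcdh19 differed by -0.43 with an adjusted p of 0.322.

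**Figure D4:**
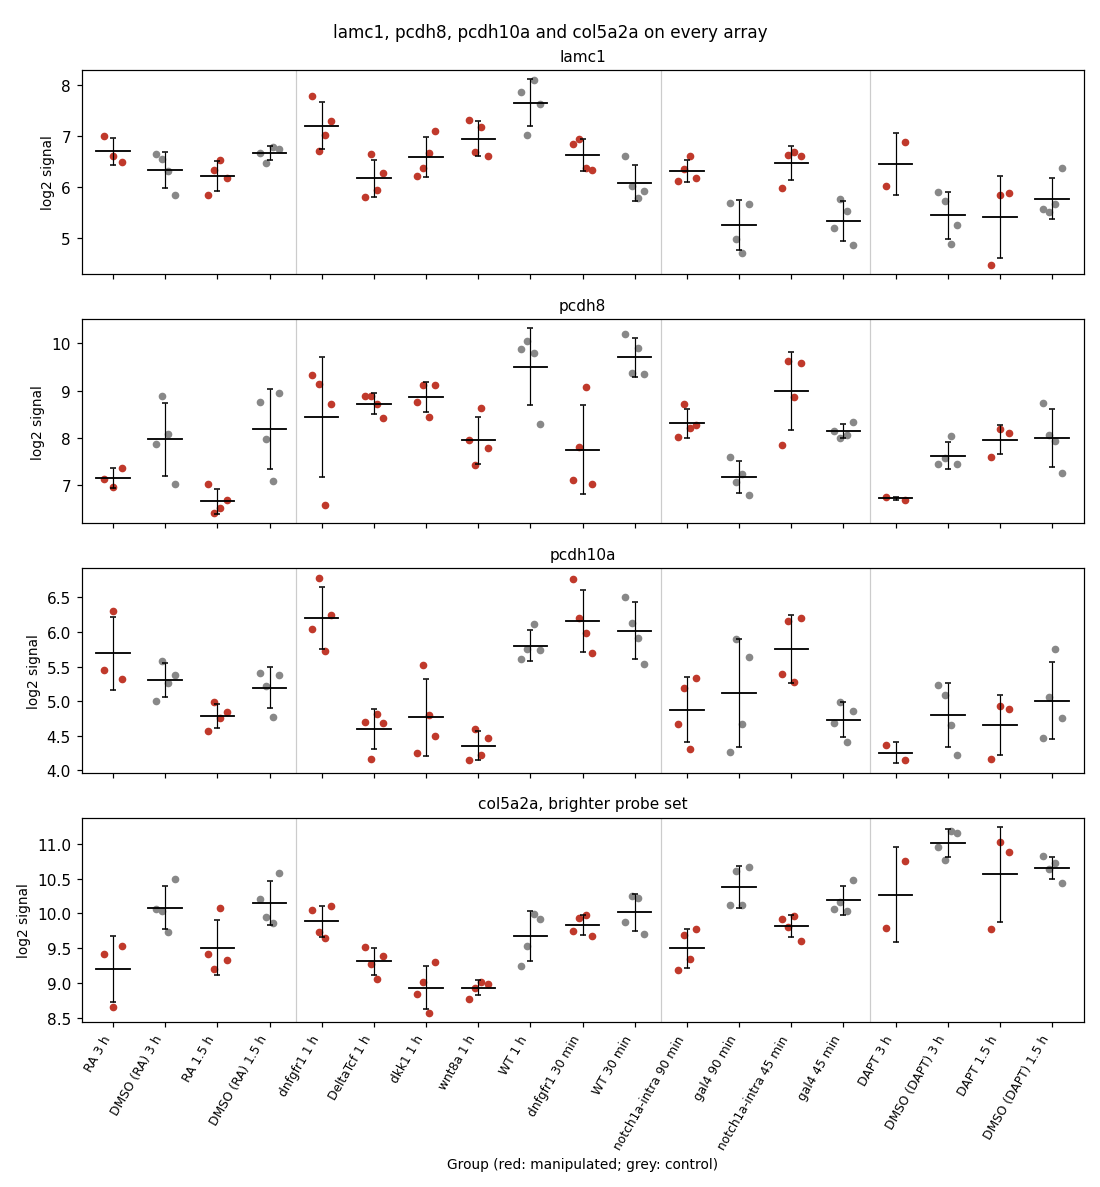
Log2 signal of lamc1, pcdh8, pcdh10a and col5a2a (panels from the top) on each of the 72 arrays, by group; points are arrays, horizontal lines group means and bars the SD. lamc1 is highest in wild type at 1 h and lowest in the gal4 groups, and pcdh10a of all 12 Wnt libraries lies below wild type at 1 h.

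Among the laminins, lamc1 encodes the gamma1 chain shared by most laminin trimers and was called most often, in 5 comparisons. In wild type it was at 7.86, 7.02, 8.10 and 7.63 at 1 h, against 6.60, 6.02, 5.78 and 5.91 at 30 min, with no overlap. The difference of 1.58 (SE 0.28, adjusted p = 0.000128) is 2.98-fold and held under every alternative run. It was also called against these 1 h arrays in 2 sets of Wnt libraries. It was at 5.81, 6.63, 5.94 and 6.27 in the libraries labelled DeltaTcf and 6.21, 6.38, 6.66 and 7.10 in those labelled dkk1, with differences of -1.49 (SE 0.28, adjusted p = 4.69e-05) and -1.07 (SE 0.28, adjusted p = 0.0025). The DeltaTcf libraries lay below wild type, and the highest dkk1 library passed the lowest wild-type array. In those labelled wnt8a it was at 7.31, 6.69, 7.18 and 6.61, with a difference of -0.71 and an adjusted p of 0.0693. Set against the wild-type arrays at 30 min, which were added as an alternative after the data had been seen, lamc1 differed by 0.08 for DeltaTcf and 0.51 for dkk1, with adjusted p of 0.864 and 0.159. The falls of lamc1 in the Wnt libraries were thus relative to the wild-type arrays at 1 h only.

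lamc1 was higher in the notch1a-intra groups at both times. At 45 min it was at 5.97, 6.62, 6.68 and 6.60 in the libraries labelled notch1a-intra, against 5.18, 5.75, 5.53 and 4.86 in gal4, a difference of 1.13 (SE 0.28, adjusted p = 0.00812). Without replicates 2 and 4, in which notch1a was near gal4, it was 0.99 with an adjusted p of 0.0457. In a fit of only these 8 arrays the adjusted p was 0.0714, and 0.037 with replicate numbers as a block in that fit. At 90 min it was at 6.12, 6.34, 6.60 and 6.17 in notch1a-intra embryos, against 5.69, 4.97, 4.70 and 5.66 in gal4, a difference of 1.06 (SE 0.28, adjusted p = 0.0103). No arrays overlapped at either time. The 90 min call was lost without gal4 replicate 3, with an adjusted p of 0.0759. lamc1 in the gal4 groups was itself low beside the other groups, with means of 5.33 and 5.25.

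lama5 encodes an alpha chain of epidermal and other basement membranes. It was at 4.27, 6.33, 6.60 and 5.86 in the libraries labelled dkk1, against 7.001, 7.45, 7.03 and 7.61 in wild type at 1 h, a difference of -1.51 (SE 0.49, adjusted p = 0.0169). Against the wild-type arrays at 30 min the difference was -0.92 with an adjusted p of 0.151. Replicate 1 of dkk1 was the lowest, and its epidermis markers summed to 119, while those of the other dkk1 libraries were 3042, 4699 and 2808 and those of wild type at 1 h 2639 to 4884. All 7 tested epidermis markers lay below wild type in this comparison, with a median of -1.21. Without that library lama5 differed by -1.01 with an adjusted p of 0.148. The call was also lost without wild-type replicate 4, with a difference of -1.40 and an adjusted p of 0.0509. The part of epidermal tissue in this result was not tested.

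The remaining laminin chains were called only in the libraries labelled DeltaTcf. lama4 was higher there, at 5.70, 5.36, 5.22 and 5.67, against 5.10, 5.08, 4.68 and 4.67 in wild type at 1 h, a difference of 0.61 (SE 0.21, adjusted p = 0.0358). lamb1a, the beta1 chain and one of the brightest 3 member probe sets, was lower, at 10.08, 10.18, 9.94 and 10.24, against 10.69, 10.36, 10.30 and 10.503, a difference of -0.35 (SE 0.12, adjusted p = 0.0336). Both were lost against the wild-type arrays at 30 min, with adjusted p of 0.562 and 0.149. Each was also lost without any of 4 single arrays, with adjusted p of 0.0942 to 0.108 for lama4 and 0.0697 to 0.143 for lamb1a. Across groups lamb1a ran between 9.67 after DAPT for 3 h and 10.89 after notch1a-intra at 90 min.

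Fibronectin, the main ligand of integrin alpha5 beta1 at somite borders, is encoded by fn1a and fn1b. fn1a was lower on its brightest probe set in the libraries labelled dkk1, at 9.32, 9.21, 8.97 and 9.53, against 9.98, 9.85, 9.96 and 9.83 in wild type at 1 h, with no overlap and a difference of -0.65 (SE 0.20, adjusted p = 0.0101). A second probe set gave -0.67 (SE 0.23, adjusted p = 0.0233). Against the wild-type arrays at 30 min the adjusted p was 0.121 and 0.195. The remaining tested probe set of fn1a, with a mean of 5.18 over all arrays, was not called in any comparison. In the libraries labelled DeltaTcf and wnt8a the brightest probe set differed by -0.50 and -0.43, with adjusted p of 0.061 and 0.133. After DAPT for 3 h fn1a was at 8.97 and 8.69, against 9.64, 10.11, 10.08 and 9.40 in DMSO, a difference of -0.98 (SE 0.24, adjusted p = 0.0078). The second probe set, at 4.86 and 4.68 with DAPT and 4.92, 4.37, 4.59 and 4.66 in DMSO, gave a difference of 0.13. Those values are near the floor of 4, so this probe set could not show a difference of -0.98. The call also rests on 2 arrays and was lost without DAPT replicate 2, with an adjusted p of 0.0863. It was lost as well in a fit of only the groups compared, with or without replicate numbers as a block.

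fn1b, one of the brightest member probe sets, was never called. Its group means stayed between 9.96 after DAPT for 3 h and 11.25 in the libraries labelled DeltaTcf. The nearest to a call was the DAPT effect at 3 h minus 1.5 h, at -0.69 (SE 0.22, adjusted p = 0.0646). Thrombospondins, matricellular proteins of muscle, tendon and cartilage, were not called either. thbs4b, which in zebrafish assembles matrix at muscle attachments, had group means between 4.69 after RA for 3 h and 5.87 after notch1a-intra at 90 min. thbs3a ran between 5.40 in the libraries labelled DeltaTcf and 6.12 in gal4 at 90 min. thbs1b was below the filter.

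The integrins, which bind these ligands, gave no call in any of the 18 comparisons. itga5, the alpha subunit of the fibronectin receptor and a gene needed for somite borders in zebrafish, ranged between means of 5.02 in the libraries labelled DeltaTcf and 6.90 after notch1a-intra at 90 min. At 90 min it was at 7.47, 6.29, 7.54 and 6.29 in notch1a-intra embryos, against 5.89, 5.53, 6.91 and 5.74 in gal4, a difference of 0.88 (SE 0.40, adjusted p = 0.189). At 45 min it was at 7.30, 5.33, 7.86 and 5.33 in the libraries labelled notch1a-intra, against 5.91, 6.28, 5.59 and 6.99 in gal4. Replicates 1 and 3, with high notch1a, were above all gal4 arrays, and replicates 2 and 4, with low notch1a, were below all of them. The difference of 0.26 over all 4 had an adjusted p of 0.784.

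Of the other integrins, itgb5 varied less and itga6b about as much, with ranges of group means of 1.07 and 1.84, against 1.88 for itga5. itgb5, a beta subunit of vitronectin receptors, was closest to a call between the libraries labelled DeltaTcf, at 6.79, 6.79, 7.42 and 7.15, and those labelled dkk1, at 6.22, 6.44, 6.51 and 6.44, with a difference of 0.63 (SE 0.20, adjusted p = 0.0671). itga6b, an alpha subunit of laminin receptors, was at 5.46, 5.86, 5.92 and 5.20 after RA for 1.5 h, against 5.56, 5.52, 4.44 and 4.23 in DMSO, with an adjusted p of 0.242. No itgav or itgb1 gene was among the members.

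Of the collagens, col5a2a, which encodes a chain of type V collagen that nucleates fibrils, was called in 4 comparisons and always lower, on its brighter probe set. It was at 8.84, 9.02, 8.57 and 9.31 in the libraries labelled dkk1 and 8.77, 8.93, 9.02 and 8.99 in those labelled wnt8a, against 9.24, 9.53, 9.997 and 9.92 in wild type at 1 h. The wnt8a libraries did not overlap wild type, while the highest dkk1 library passed the lowest wild-type array. The differences were -0.74 (SE 0.21, adjusted p = 0.00666) and -0.74 (SE 0.21, adjusted p = 0.00965), and the DeltaTcf libraries, at 9.52, 9.28, 9.06 and 9.38, differed by -0.36 with an adjusted p of 0.234.

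col5a2a was also lower after notch1a-intra at 90 min, at 9.19, 9.69, 9.34 and 9.77, against 10.11, 10.61, 10.12 and 10.67 in gal4, a difference of -0.88 (SE 0.21, adjusted p = 0.00474). It held under every alternative run on this probe set, while the dimmer probe set gave -0.16 with an adjusted p of 0.736. RA for 3 h gave 9.41, 8.66 and 9.53, against 10.06, 10.04, 9.74 and 10.49 in DMSO, a difference of -0.88 (SE 0.23, adjusted p = 0.0108). None of these arrays overlapped. Without RA replicate 2 the difference at 3 h was -0.61 with an adjusted p of 0.309. PSM markers summed to 8331 to 9476 with RA at 3 h, against 12470 to 13450 in DMSO. Of these 10 markers 8 lay lower, 3 of them called, and 1 was called higher. Their part in the result was not tested. The dimmer probe set of col5a2a was not called in any of these 4 comparisons. Its mean over all arrays was 5.02, near the floor of 4, which limits the falls it can show.

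col1a1a encodes a chain of type I collagen, made in the fish embryo largely by epidermis and later by fibroblasts. It was lower on both probe sets in the libraries labelled notch1a-intra 45 min. The brighter was at 5.66, 5.69, 5.78 and 5.92 in these libraries, against 7.35, 8.78, 7.73 and 7.24 in gal4, a difference of -2.01 (SE 0.48, adjusted p = 0.00725), or 4.04-fold. The dimmer was at 5.28, 5.57, 5.52 and 5.82 in these libraries, against 6.39, 7.92, 6.86 and 6.42 in gal4, a difference of -1.35 (SE 0.34, adjusted p = 0.0124). In a fit of only these 8 arrays the dimmer one had an adjusted p of 0.110, and of 0.0641 with replicate numbers as a block in that fit. No arrays overlapped. Without replicates 2 and 4, in which notch1a was near gal4, the differences were -2.06 and -1.50, with adjusted p of 0.0171 and 0.0148. Without gal4 replicate 2, the highest array, the adjusted p was 0.0519 and 0.107. Epidermis markers summed to 1954 to 3925 in the libraries labelled notch1a-intra and to 2069 to 7552 in gal4, highest in gal4 replicate 2, and 6 of 7 lay lower in those labelled notch1a-intra, with a median of -0.40. Blood and endothelium markers summed to 121.5 to 718.2 in those libraries and to 947.3 to 3123 in gal4, again highest in gal4 replicate 2, and all 7 lay lower in those labelled notch1a-intra. Their part in the result was not tested.

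After dnfgfr1 at 30 min col1a1a was higher, at 8.39, 6.56, 7.16 and 7.12, against 6.52, 5.44, 5.58 and 5.08 in wild type, a difference of 1.66 (SE 0.48, adjusted p = 0.0393). It was lost without any of 6 of the 8 arrays, and the dimmer probe set was not called. Epidermis markers summed to 1742 to 4585 in dnfgfr1 embryos. In wild type they were 3288 and 3579 in replicates 1 and 2 but 316 and 269 in replicates 3 and 4. All 7 lay higher in dnfgfr1 embryos, with a median of 1.47, and their part in the result was not tested. At 1 h col1a1a was at 8.03, 8.29, 5.75 and 6.32 with dnfgfr1, against 5.41, 7.001, 6.30 and 6.69 in wild type, and was not called.

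col18a1a, a basement membrane collagen that carries endostatin, was higher after RA for 1.5 h, at 9.70, 10.56, 10.43 and 10.52, against 9.001, 10.07, 7.76 and 7.71 in DMSO, a difference of 1.67 (SE 0.44, adjusted p = 0.0139). DMSO replicate 2 overlapped the RA arrays. Epidermis markers summed to 3019, 5331, 6467 and 1895 in the RA arrays and to 3025, 3552, 163 and 487 in the DMSO arrays, so the DMSO arrays with low col18a1a also had low epidermis markers. All 7 were higher with RA, with a median of 1.54, and their part in the result was not tested. Without DMSO replicate 3 or 4 the adjusted p was 0.113. In the same comparison lama5 was at 7.50, 8.32, 8.49 and 7.38 with RA, against 7.72, 7.43, 5.69 and 5.73 in DMSO, and its difference of 1.28 had an adjusted p of 0.134.

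**Figure D5:**
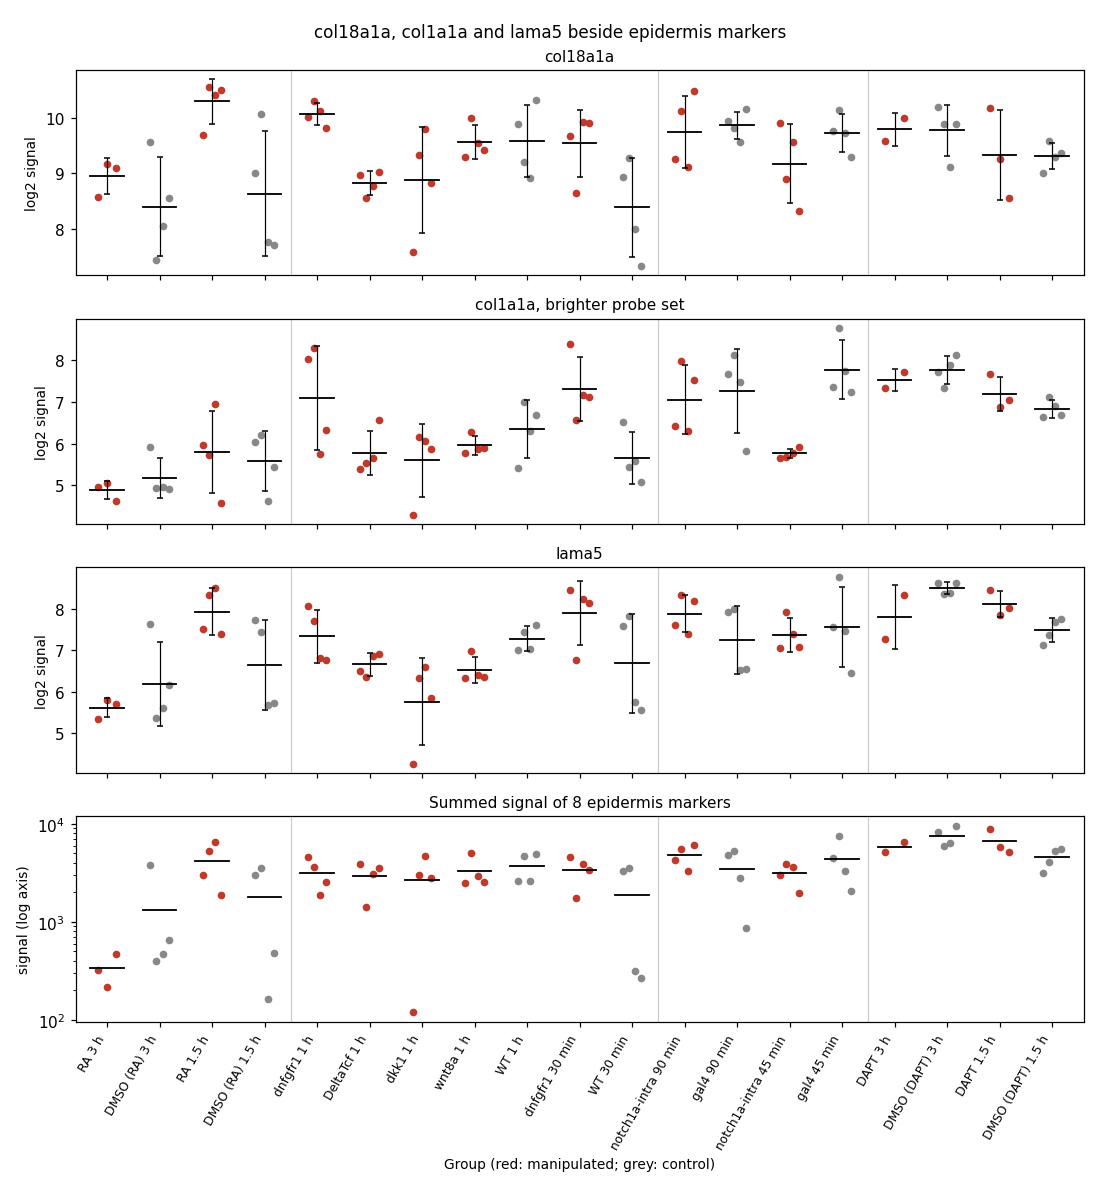
Log2 signal of col18a1a, col1a1a and lama5 on each of the 72 arrays, and the summed signal of 8 epidermis markers on a log axis (bottom), by group; points are arrays, horizontal lines means and bars the SD. In wild type at 30 min and in DMSO at 1.5 h of the RA experiment, the arrays with low epidermis sums are also low in lama5 and col18a1a. In wild type at 30 min col1a1a does not follow the order of the sums. After RA for 1.5 h col18a1a is not lowest in the array with the lowest sum.

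The last collagen call was col12a1b, a fibril-associated collagen, which was higher in the libraries labelled DeltaTcf, at 6.97, 7.17, 6.67 and 6.17, against 5.78, 6.48, 6.10 and 6.41 in wild type at 1 h. The arrays overlapped, the difference was 0.55 (SE 0.20, adjusted p = 0.0416), and 5 of the 8 arrays each ended the call when left out. The other 7 tested collagen genes were never called. They include col1a2, the partner of col1a1a in type I collagen, whose differences ran from -1.23 in the libraries labelled notch1a-intra 45 min, with an adjusted p of 0.0586, to 1.15 in DMSO of the DAPT experiment at 3 h against 1.5 h. col9a1b and col28a2a were among the 3 dimmest tested members, with means over all arrays of 4.75 and 4.87.

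The 3 sets of Wnt libraries were also compared with each other, and no member was called in limma in any pair, although 3.28% of all probe sets were called between dkk1 and wnt8a, 2.53% between DeltaTcf and wnt8a and 3.48% between DeltaTcf and dkk1. At an unadjusted p under 0.05 there were 4, 5 and 1 members. For the dimmer probe set of cdh2 the 95% interval of the difference was -0.90 to 0.07 between dkk1 and wnt8a, -0.67 to 0.29 between DeltaTcf and wnt8a and -0.26 to 0.71 between DeltaTcf and dkk1. For pcdh10a the intervals were -0.18 to 0.99, -0.35 to 0.82 and -0.76 to 0.41 in the same order. For pcdh19 the difference of dkk1 from wnt8a was -0.998 (SE 0.31, adjusted p = 0.0604), and for pcdh8 it was 0.91 (SE 0.42, adjusted p = 0.261).

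Genes that work with the members were counted in 4 further lists, which had 12, 13, 15 and 21 tested genes. In the Wnt comparisons their counts stand beside 20.6%, 24.6% and 16.2% of all tested probe sets called for DeltaTcf, dkk1 and wnt8a. Of 12 matrix proteoglycans and linkers, tgfbi, a secreted protein that binds collagen and integrins, was higher in the libraries labelled wnt8a, with a mean of 7.85 against 6.26 in wild type and a difference of 1.59 (adjusted p = 1.05e-06). It was also higher by 0.81 in the libraries labelled DeltaTcf (adjusted p = 0.0088) and by 1.097 after dnfgfr1 at 30 min (adjusted p = 0.00254). With notch1a-intra it was higher by 1.12 in the libraries so labelled at 45 min (adjusted p = 0.00202) and by 1.43 at 90 min (adjusted p = 1.97e-05). fbln1, a matrix linker, was lower in all 3 sets of Wnt libraries, with differences of -1.45 in those labelled DeltaTcf, -1.36 in those labelled dkk1 and -1.70 in those labelled wnt8a. This list had 1 gene higher and 1 lower for DeltaTcf and for wnt8a, 0 higher and 2 lower for dkk1, and medians of -0.06, -0.13 and -0.24 for DeltaTcf, wnt8a and dkk1.

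Of 13 genes that make or remodel matrix, 1 was lower for DeltaTcf, 1 for dkk1 and 2 for wnt8a, and none was higher, where 10.6%, 12.1% and 8.39% of all were lower. plod1a, a collagen lysyl hydroxylase, was among them each time, with differences of -0.67, -0.76 and -0.57. serpinh1b, the collagen chaperone Hsp47, was lower after RA for 1.5 h, with a difference of -0.48 (adjusted p = 0.00163), and after DAPT for 3 h, with one of -0.49 (adjusted p = 0.0133). mmp2, a matrix metalloproteinase, was higher after dnfgfr1 at 30 min, by 1.32 (adjusted p = 0.00216).

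Of 15 integrin adaptors, 1 was higher and 2 were lower in each set of Wnt libraries, so 3 of 15 were called where 20.6%, 24.6% and 16.2% of all were. parvaa, an adaptor that binds integrin-linked kinase, was higher by 0.92, 1.07 and 0.91 in the libraries labelled DeltaTcf, dkk1 and wnt8a, while lims1, its partner in the same complex, was lower, with differences of -1.39, -1.05 and -1.03. The wild-type arrays at 1 h were themselves higher in lims1 than those at 30 min, by 0.98 (adjusted p = 0.0195 in limma). Means of lims1 were 7.56 in wild type at 1 h and 6.58 at 30 min. They were 6.16, 6.51 and 6.53 in the libraries labelled DeltaTcf, dkk1 and wnt8a. Integrin-linked kinase itself, ilk, was lower in those labelled DeltaTcf and wnt8a, with a difference of -0.65 in each, and higher by 0.76 in the libraries labelled notch1a-intra 45 min (adjusted p = 0.0251). bcar1, the docking protein p130Cas, was higher after RA, by 1.62 at 1.5 h (adjusted p = 3.47e-07) and 1.30 at 3 h (adjusted p = 0.000159).

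Of 21 cadherin complex and other junction genes, 1 was higher and 3 were lower in each set of Wnt libraries, so 4 of 21 were called against the same shares of all. ctnna1 (alpha-catenin, which ties cadherins to actin) was higher, by 0.98, 1.06 and 1.05 in the libraries labelled DeltaTcf, dkk1 and wnt8a. jupa (plakoglobin) was lower, with differences of -0.78, -0.90 and -0.63, and so was fat1a, a large cadherin of the Fat family, with -1.13, -1.58 and -0.85. In the libraries labelled notch1a-intra 45 min, 3 genes of this list were lower and none higher, where 1.96% of all probe sets were lower and 2.13% higher. Among them was jam2a, a junctional adhesion molecule, with a difference of -1.61 (adjusted p = 0.000367). This count includes replicates 2 and 4, whose notch1a was near that of gal4. efnb2b, an ephrin ligand at somite borders, was lower after RA, with differences of -1.36 at 1.5 h (adjusted p = 3.27e-07) and -1.42 at 3 h (adjusted p = 4.63e-07). The gene of an ephrin receptor, epha4a, was lower after DAPT for 3 h, with a difference of -1.91 (adjusted p = 5.24e-05). It was the 1 gene of this list called there, where 5.35% of all probe sets were called. It was also lower in the libraries labelled DeltaTcf and wnt8a, with differences of -1.23 (adjusted p = 0.000256) and -1.51 (adjusted p = 1.4e-05), and after RA for 3 h, with -1.04 (adjusted p = 0.0128). After dnfgfr1 at 30 min it was higher by 0.92 (adjusted p = 0.0269).

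The 25 member probe sets below the filter lay above their array's median on at most 2 arrays, and none had a group mean above 5.42. For 20 genes no probe set passed. These were col2a1a, col8a1a, col9a2, col9a3, col10a1a, col10a1b, col11a2, col15a1b, col17a1b, col28a1a, lamb2l, lamb4, lamc3, itga2b, itgae.2, thbs1b, cdh4, cdh13, cdh15 and pcdh1a6. Several are known markers of cartilage and notochord sheath (col2a1a), skeletal muscle (cdh15) or blood platelets (itga2b). A difference in these genes was not detectable on this array and is not shown to be absent.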

How the data were processed

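Expression in dissected posterior PSM was measured on 72 Affymetrix zebrafish arrays, 1 array per sample, grouped by the labels. The deposited intensity values are MAS5 signals on a linear scale, per the submitters' processing notes, and the version is not given in the sources used here. Every array's deposited intensity had the same 2%-trimmed mean of 150, and 13 DAPT-experiment arrays were rounded to 1 decimal. The 115 control probe sets were left out of 15617, 16 was added, log2 taken and arrays quantile normalized. Probe sets above the array median on at least 3 arrays were tested (10126). Differences were tested in limma 3.58.1 (R 4.3.3) with 19 group means over all 72 arrays, trended and robust empirical Bayes, and Benjamini-Hochberg adjustment at 0.05 within each of 18 comparisons and 4 time contrasts. The fit was tested on simulated data.

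Symbols are those of GEO's platform annotation, and all 65 member probe sets matched a RefSeq gene of GRCz12tu by identifier. No coordinates are printed. The brightest probe set stands for a gene, and others are given where they differ. Named are a set of core genes, every called member (at most 8 higher and 8 lower a comparison), the 3 brightest and 3 dimmest tested members, members called in a time contrast, and at most 4 called partner genes a comparison. The members, the lists and the rule were chosen with earlier results of these data known.

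Among comparisons with 3 or more pairs, same-numbered arrays deviated together only for notch1a-intra and gal4 at 45 min, where the correlation of their deviations from the group means was 0.21 to 0.312 in all 4 pairs. The labels do not say what the numbers share. Arrays carry no scan date or batch. P-values measure the spread between these arrays, and the number of arrays limits the precision. Alternatives were the deposited scaling, median centring, pseudocounts of 1 and 64, no filter and a filter at 36 arrays, array quality weights, only the groups compared, a replicate block, other probe sets, and each array left out. Those against wild type at 30 min and without the notch1a-intra 45 min replicates 2 and 4 were added after seeing the data.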

Additional observations from a re-analysis of the deposited data

Results flagged for a closer look

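In 4 of 79 pairs of a called gene and a group of 4 arrays, 1 array stood apart from the other 3 by more than Dixon's 95% limit; chance alone gives about 1 in 20 such groups, so 4 of 79 is near that rate. col18a1a was at 9.703 in RA 1.5 h replicate 1, below the other RA arrays at 10.43 to 10.56. pcdh8 was at 8.308 in wild-type 1 h replicate 4, below 9.792 to 10.06 in the others. lamc1 was at 5.972 in replicate 1 of the libraries labelled notch1a-intra 45 min, below 6.602 to 6.675 in the others. The dimmer probe set of cdh2 was at 6.858 in DMSO 3 h replicate 1 of the RA experiment, below 7.895 to 7.912 in the others.

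The DAPT effect on the brighter probe set of cdh2 differed between the times, with a difference of -0.603 for 3 h minus 1.5 h (limma, adjusted p = 0.0205). It was lower than every DMSO array on 2 of 2 DAPT arrays at 3 h. The dimmer probe set gave -0.49 with an adjusted p of 0.536. On the brighter one the call was lost on deposited scaling, after median centring and with array quality weights. It was also lost in fits of only the groups compared, with or without a replicate block. Without DAPT 1.5 h replicate 2 the difference was -0.52 (limma, adjusted p = 0.0599), and without DAPT 3 h replicate 1 it was -0.47.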

How the results depend on the processing

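The counts of members called were recomputed 203 times under settings other than leaving out 1 array, and 149 were within 1.5 times of the reported count; the cause of the 54 that moved was not tested, apart from the fewer arrays or genes that a setting holds. With array quality weights the count was 6 for RA at 1.5 h and for dnfgfr1 at 30 min, 2 for dnfgfr1 at 1 h, 15 for notch1a-intra at 45 min, 0 for DAPT at 3 h, 1 for dkk1 against wnt8a, 2 for DeltaTcf against wnt8a, for wild type over time and for gal4 over time, 0 for DMSO of the DAPT experiment over time, 1 for the RA effect, 6 for the notch1a-intra effect and 0 for the DAPT effect over time. In fits of only the groups compared it was 0 for RA at 1.5 h and at 3 h, dnfgfr1 at 1 h, DAPT at 3 h, gal4 over time and the DAPT effect over time, 12 for wnt8a, 1 for notch1a-intra at 45 min, and 2 for dkk1 against wnt8a, for DeltaTcf against wnt8a and for DMSO of the DAPT experiment. With the replicate block added it was 1 for RA at 1.5 h, 12 for wnt8a, 2 for dkk1 against wnt8a, and 0 for RA at 3 h, dnfgfr1 at 1 h, DAPT at 3 h, gal4 over time, DMSO of the DAPT experiment and the DAPT effect. It was 4 for notch1a-intra at 45 min, where 3 of 6 calls were lost (5 of 6 in the fit of only these arrays without the block). In the other comparisons 16 calls were lost, among them both calls of DAPT at 3 h, whose 2 pairs of same-numbered arrays had correlations of 0.104 and 0.171. With the deposited scaling it was 4 for dnfgfr1 at 30 min, 2 at 1 h, 10 for notch1a-intra at 45 min and 0 for the DAPT effect, and with median centring 0 for RA at 3 h, gal4 over time and the DAPT effect and 1 for DAPT at 3 h. A pseudocount of 1 gave 1 for dnfgfr1 at 30 min and for dkk1 against wnt8a and 3 for the DAPT effect; 64 gave 2 for dnfgfr1 at 1 h, 0 for gal4 over time and 3 for DMSO of the DAPT experiment. Without a filter it was 1 for dnfgfr1 at 30 min, 0 for gal4 over time and 2 for DMSO of the DAPT experiment and for the DAPT effect, and with the stricter filter 5 for DeltaTcf and 4 for wnt8a. Against wild type at 30 min dnfgfr1 at 1 h called 8. Shares of all probe sets called under these settings, or without 1 array, are not given beside the counts. A moved count is therefore not shown to be particular to the members.

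Leaving out each array in turn gave 0 to 3 for RA at 1.5 h, 0 to 1 at 3 h, 1 to 3 for dnfgfr1 at 30 min, 0 to 2 at 1 h, 6 to 9 for DeltaTcf, 7 to 9 for dkk1, 5 to 7 for wnt8a, 2 to 7 for notch1a-intra at 45 min, 2 to 4 at 90 min, 0 to 1 for DAPT at 1.5 h, 1 to 7 at 3 h, 0 to 1 for dkk1 and for DeltaTcf against wnt8a, 0 to 1 for gal4 over time, 1 to 4 for DMSO of the DAPT experiment, 0 to 1 for the RA and notch1a-intra effects and 1 to 5 for the DAPT effect. For the DAPT effect, the member called in those runs was not always the brighter probe set of cdh2. The 7 reversals were lamc1 against wild type at 30 min (0.084 for DeltaTcf and 0.51 for dkk1) and, on the other probe set, cdh2 with notch1a-intra at 90 min (0.94 and -0.30), fn1a with DAPT at 3 h (0.13) and cdh2 over time in DMSO (0.12 and 0.088). Of 838 member calls recomputed on the same probe set, 662 were kept, 174 lost and 2 reversed; these 2 are those of lamc1. Signal near the floor limits pcdh10a, pcdh1b, the second probe set of fn1a and the dimmer probe set of col5a2a, and 2 arrays limit DAPT at 3 h.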

Other observations

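The 2 arrays of DAPT for 3 h differed widely in several member genes that no comparison called. cdh11 was at 10.63 and 5.55 in replicates 1 and 2, and cdh17 at 8.22 and 4.21, while the DMSO arrays at 3 h were at 9.23, 8.31, 7.34 and 7.03 for cdh11 and 5.27, 5.34, 5.05 and 4.06 for cdh17. Replicate 1 was thus above and replicate 2 below most DMSO arrays in both genes. Blood and endothelium markers summed to 3349 and 855.5 in these 2 arrays, against 108.3 to 1257 in DMSO at 3 h.

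Within the 4 libraries labelled notch1a-intra 45 min, pcdh8 and fn1a, chosen here after their values were seen, also differed between the libraries with high and low notch1a. In replicates 1 and 3, with notch1a at 11.64 and 11.83, and then in replicates 2 and 4, at 7.998 and 8.29, pcdh8 was 7.86 and 8.88, then 9.63 and 9.58. fn1a was 8.81 and 9.41, then 9.93 and 9.78, in the same order. PSM markers summed to 10290 and 12960 in replicates 1 and 3 and to 15390 and 17310 in replicates 2 and 4. These are values of single libraries, with no test.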
